A study of Mus musculus with 6 samples.

Results

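The genes examined were 10 secreted factors of thermogenic fat, chosen by symbol: *Fgf21*, *Nrg4*, *Bmp8b*, *Bmp7*, *Bmp4*, *Metrnl*, *Slit2*, *Gdf15*, *Fgf9*, and *Vegfa*. They are 10 of the 55491 genes in the deposited table and 10 of the 32664 that had at least 1 count in any library. The tissue was IWAT, the subcutaneous white fat of the groin, taken from male mice aged 4 weeks on regular chow, and RNA was sequenced in 1 library for each of 3 *Ebf2+/+* mice (wild type) and 3 *Ebf2 E165X/+* mice. The latter carry 1 copy of a nonsense allele of *Ebf2*, a transcription factor of the brown and beige adipocyte lineage, and the control mice carry none. The sample labels name C57BL/6J as the strain of the mice of both genotypes. The allele was knocked in with CRISPR/Cas9 in B6SJLF1 zygotes, and the founders were bred to C57BL/6J mice. It is present in every cell of the body, so that an effect within fat and an effect from another organ cannot be told apart. In bulk tissue, fewer cells of a type and less RNA per cell cannot be told apart either. *Ebf2* itself was measured at 38.3, 41.3, and 37.2 CPM (CPM give the share of a library taken by a gene, where the size of each library was corrected with edgeR's TMM factor) in wild-type mice and at 22.8, 22.9, and 21.1 CPM in E165X/+ mice. Its log2 fold change was −0.81 with an edgeR adjusted *P* of 0.0596 and a DESeq2 adjusted *P* of 1.23e-13, and the genotypes did not overlap.

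Brown and beige adipocytes burn lipid to make heat, and they also release proteins, sometimes called batokines, that act on nearby vessels, nerves, and progenitors or on distant organs. *Nrg4* encodes neuregulin 4, a ligand of ErbB receptors that acts on the liver, and *Vegfa* encodes the main growth factor of blood vessels. *Fgf21* and *Fgf9* encode fibroblast growth factors, of which FGF21 is an endocrine hormone that needs the coreceptor β-Klotho, and FGF9 acts locally. *Bmp4*, *Bmp7*, and *Bmp8b* encode bone morphogenetic proteins, which signal through SMAD proteins. BMP7 promotes brown adipocyte formation, BMP4 commits progenitors to the adipocyte fate, and BMP8B is made by active brown fat. *Gdf15* encodes a stress-induced hormone that acts on the hindbrain, *Metrnl* encodes meteorin-like, a hormone tied to cold and exercise, and *Slit2* encodes a guidance protein whose C-terminal fragment is released by beige fat.

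None of the 10 genes passed the thresholds of an adjusted *P* under 0.05 and a fold change above 1.5, a background of 0.00918% or 3 of the 32664 genes in edgeR. *Nrg4* and *Vegfa* were lower in all 3 *Ebf2 E165X/+* mice than in any *Ebf2+/+* mouse. Their fold changes between the genotypes corresponded to 29.0% and 14.3% less, each at an unadjusted *P* under 0.05 in edgeR. *Fgf9* was higher in all 3, with a fold change of 1.55 at an unadjusted *P* of 0.0572. *Bmp4*, *Slit2*, *Gdf15*, *Metrnl*, and *Bmp7* overlapped between the genotypes, and *Fgf21* and *Bmp8b* were close to the limit of detection. The edgeR adjusted *P* was 0.783 or more for each of the 10 genes.

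The promoter sequences of the 3 genes whose genotypes did not overlap are shown, and whether they regulate these genes in IWAT was not tested. They come from RefSeq (GRCm38.p6), which matched 9 of the 10 genes, all but *Bmp7*. Each runs 5′ to 3′ on the strand of its gene and stops before the RefSeq start, with no base of a GENCODE exon of its gene. Capitals mark CCCNNGGG, the core of the palindromic motif bound by EBF proteins, and ACGTG on either strand (CACGT on the other), a core of the hypoxia response element. *Nrg4* is on the minus strand at chr9:55283626-55283875, *Vegfa* on the minus strand at chr17:46032378-46032627, and *Fgf9* on the plus strand at chr14:58072436-58072685.
Nrg4: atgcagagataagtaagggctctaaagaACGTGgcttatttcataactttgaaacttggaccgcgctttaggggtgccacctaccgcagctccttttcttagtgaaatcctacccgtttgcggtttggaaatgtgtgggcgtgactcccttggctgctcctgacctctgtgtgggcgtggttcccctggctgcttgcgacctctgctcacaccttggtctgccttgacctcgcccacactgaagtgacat
Vegfa: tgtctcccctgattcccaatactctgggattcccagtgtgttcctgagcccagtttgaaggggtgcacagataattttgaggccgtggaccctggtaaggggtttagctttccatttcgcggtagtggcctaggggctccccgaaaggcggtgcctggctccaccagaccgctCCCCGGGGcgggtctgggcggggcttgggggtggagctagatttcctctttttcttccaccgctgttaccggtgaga
Fgf9: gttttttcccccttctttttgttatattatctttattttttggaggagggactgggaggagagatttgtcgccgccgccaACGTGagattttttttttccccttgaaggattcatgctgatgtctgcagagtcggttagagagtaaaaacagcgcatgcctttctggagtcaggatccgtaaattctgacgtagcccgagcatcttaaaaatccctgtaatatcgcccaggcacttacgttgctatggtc
The *Vegfa* sequence held 1 CCCNNGGG match and no ACGTG match, while those of *Nrg4* and *Fgf9* each held 1 ACGTG match and no CCCNNGGG match. No marked match overlapped another. In the full RefSeq windows, from 250 bases before to 50 after the start, CCCNNGGG was in those of *Vegfa*, *Bmp4*, and *Fgf21*, and ACGTG was in those of *Nrg4*, *Fgf9*, *Bmp8b*, *Bmp4*, and *Fgf21*. Of all 32851 mouse windows, 13.7% held CCCNNGGG and 19.6% held ACGTG. A match describes letters only, and binding was not measured in this comparison. The RefSeq start used for *Nrg4* lies 43219 bases inside the GENCODE gene and that for *Fgf9* 2139 bases inside it, so that both stretches are within the gene, downstream of other annotated starts.

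Libraries held 106820505 to 135039488 counts, so that 3 counts, taken here as the floor of detection, correspond to 0.0234 to 0.0285 CPM. One library stood apart from the others. The summed level of 8 skeletal muscle markers, most abundant *Myh4* (here and below by CPM, not corrected for length), was 1860, 7607, and 2969 CPM in wild-type mice and 3168, 756, and 44794 CPM in E165X/+ mice, and none of the 8 markers was at 0 in any library. These markers took 4.48% of the scaled library of *Ebf2 E165X/+* mouse 3 and at most 0.761% of any other. Values without this mouse are given for the secreted factors measured above the floor, and for many of the other genes, lists, and marker sums. The part of muscle RNA in the results was not tested.

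*Nrg4* (chr9:55220222-55326844, minus strand, GRCm38) was measured at 41.6, 39.8, and 40.7 CPM in wild-type mice and at 38.1, 29.0, and 19.6 CPM in E165X/+ mice. The 3 *Ebf2+/+* values lay within a narrow range (40.7 ± 0.882 CPM; SD, n = 3), and the *Ebf2 E165X/+* values were spread below it (28.9 ± 9.23 CPM; SD, n = 3), from just under the controls to well under them. Its log2 fold change was −0.49 (SE 0.209, 95% interval −0.98 to −0.0058), with an edgeR unadjusted *P* of 0.0479 and an adjusted *P* of 0.783. The lowest value was that of *Ebf2 E165X/+* mouse 3, the library rich in muscle transcripts, in which the summed level of 7 white adipocyte markers was also the lowest. Without that mouse the log2 fold change was −0.28 (unadjusted *P* = 0.0406), and without *Ebf2 E165X/+* mouse 1 it was −0.74, so the size of the difference depended on the mouse while its direction did not. Leaving out any other mouse gave an edgeR unadjusted *P* of 0.0838 to 0.0966, and filterByExpr, a stricter filter on counts, gave 0.0627. *Nrg4* shares 368 exon bases with *Fbxo22* on the opposite strand, and whether counting used strand was not given in the sources used here. *Fbxo22* had a log2 fold change of −0.03, and its part in the *Nrg4* counts was not tested.

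*Vegfa* (chr17:46016993-46032369, minus strand) was measured at 189, 203, and 223 CPM in wild-type mice and at 185, 172, and 171 CPM in E165X/+ mice. The ranges were close but did not overlap, with *Ebf2 E165X/+* mouse 1 just under the lowest control. The log2 fold change was −0.22 (SE 0.0928, 95% interval −0.44 to −0.0067), with an edgeR unadjusted *P* of 0.0448 and an adjusted *P* of 0.783. Leaving out each mouse in turn gave −0.29 to −0.18. Without *Ebf2 E165X/+* mouse 3 it was −0.20 (unadjusted *P* = 0.085), of nearly the same size as with that mouse.

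*Fgf9* (chr14:58070547-58112720, plus strand) was the member with the largest log2 fold change in either direction among those with at least 10 counts in every library when all 6 mice were used, whereas without E165X/+ mouse 3 *Slit2* exceeded it. It was measured at 0.807, 0.636, and 0.758 CPM in wild-type mice and at 0.959, 0.881, and 1.58 CPM in E165X/+ mice, from 67 to 202 counts per library. All 3 *Ebf2 E165X/+* values were above the controls, 2 of them narrowly and that of mouse 3 by a wide margin. The log2 fold change was 0.63 (SE 0.282, 95% interval −0.025 to 1.29), with an edgeR unadjusted *P* of 0.0572 and an adjusted *P* of 0.783. Without *Ebf2 E165X/+* mouse 3 it dropped to 0.33 (unadjusted *P* = 0.236). *Fgf9* lies 9.12 Mb from *Ebf2* on chromosome 14, and since the founders came from hybrid zygotes, linked alleles and the E165X allele cannot be told apart as the source of a difference near it.

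**Figure D1:**
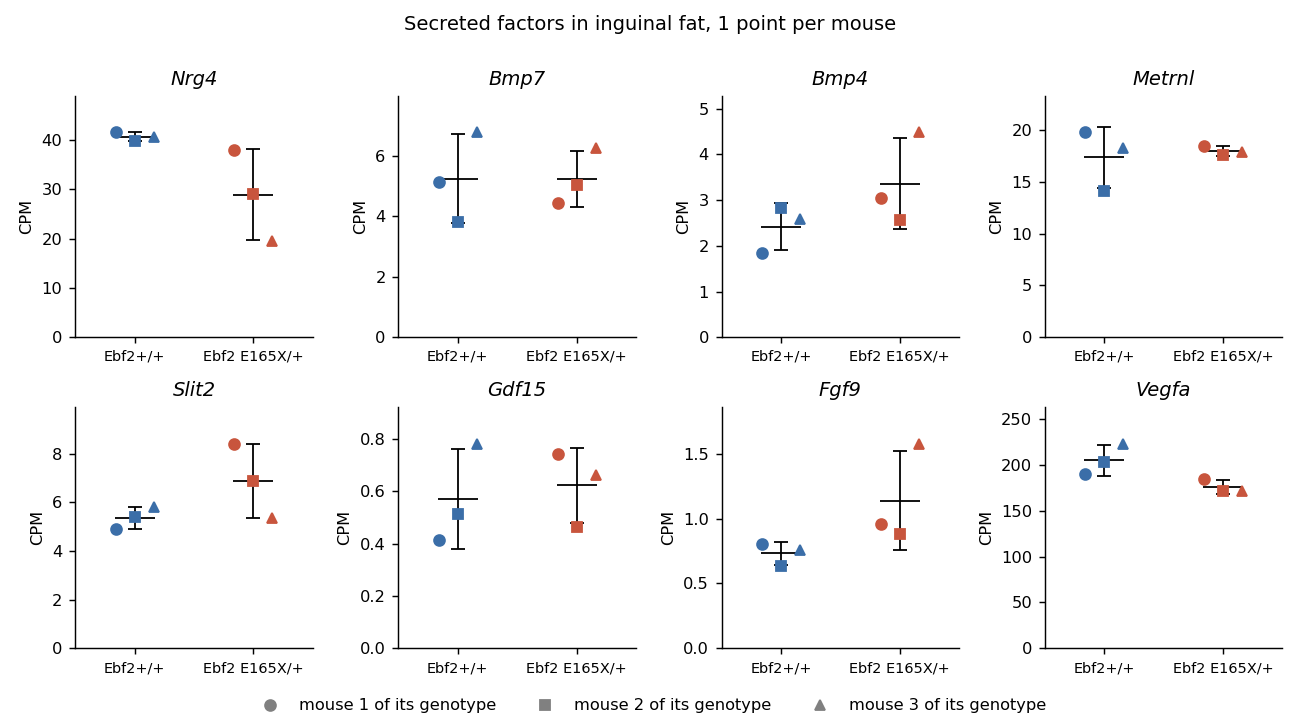
Levels of the 8 secreted factors with at least 10 counts in every library, in CPM on linear axes that start at 0, with 1 point per mouse (mouse numbers are not taken as pairs across genotypes), and the mean and SD of 3 mice in black. *Nrg4* and *Vegfa* lie lower and *Fgf9* higher in *Ebf2 E165X/+* without overlap, and mouse 3 gives the lowest *Nrg4* and the highest *Fgf9* and *Bmp4* values.

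Among the 3 BMP ligands, *Bmp4* (chr14:46383520-46390669, minus strand, 20.8 Mb from *Ebf2*) was measured at 1.84, 2.82, and 2.59 CPM in wild-type mice and at 3.04, 2.56, and 4.48 CPM in E165X/+ mice. The ranges overlapped, and the highest value was again that of *Ebf2 E165X/+* mouse 3. The log2 fold change of *Bmp4* was 0.48 (SE 0.265, 95% interval −0.14 to 1.10), with an edgeR unadjusted *P* of 0.112, and 0.21 without that mouse (unadjusted *P* = 0.412). *Bmp7* was measured at 5.14, 3.82, and 6.77 CPM against 4.42, 5.03, and 6.25 CPM, where the range of E165X/+ mice lay inside that of wild-type mice. Its log2 fold change was −0.0037 (SE 0.237), and the 95% interval of −0.56 to 0.55 leaves room for a change of either sign. Without E165X/+ mouse 3 it was −0.15 (unadjusted *P* = 0.568). *Bmp8b* had 3, 3, and 4 counts in wild-type mice and 3, 1, and 1 in E165X/+ mice, 15 in all, so both genotypes were at about the floor and no fold change is given. Its transcript is 82.6% identical to that of *Bmp8a* over 1486 bases and it shares 133 exon bases with *Ppie* on the opposite strand, so that even these counts are uncertain.

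*Slit2* was measured at 4.90, 5.42, and 5.81 CPM in wild-type mice and at 8.42, 6.89, and 5.38 CPM in E165X/+ mice. Mice 1 and 2 of the *Ebf2 E165X/+* group were above every control, whereas mouse 3, the highest for *Fgf9* and *Bmp4*, was among the controls and the lowest of its group. The log2 fold change of *Slit2* was 0.36 (SE 0.185, 95% interval −0.074 to 0.79), with an edgeR unadjusted *P* of 0.0916, and without mouse 3 it was 0.51 (unadjusted *P* = 0.0171, adjusted *P* no lower than 0.598 under any alternative). Without E165X/+ mouse 1 it was 0.19 (unadjusted *P* = 0.321), so the size rested on single mice in either direction. *Metrnl* was measured at 19.8, 14.1, and 18.3 CPM against 18.5, 17.6, and 17.9 CPM. The *Ebf2 E165X/+* values of *Metrnl* all lay within the range of the controls, and the log2 fold change was 0.05 (SE 0.131, 95% interval −0.26 to 0.35). This interval excludes a change of 1.5-fold in either direction, and without E165X/+ mouse 3 the log2 fold change of *Metrnl* was again 0.05.

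The endocrine hormones GDF15 and FGF21 had transcripts of low count. *Gdf15* was measured at 0.416, 0.512, and 0.783 CPM in wild-type mice and at 0.743, 0.464, and 0.664 CPM in E165X/+ mice, with overlapping ranges and a log2 fold change of 0.13 (SE 0.320, 95% interval −0.62 to 0.87), or 0.08 without E165X/+ mouse 3. *Fgf21* had 7, 0, and 4 counts in wild-type mice and 2, 4, and 11 in E165X/+ mice, 28 in all. Each genotype had libraries at or near the floor for *Fgf21*, and a difference was not detectable at this depth. For comparison between genes, levels were divided by exon length in kb. In *Ebf2+/+* mice the order was *Vegfa* (47.9 CPM per kb), *Metrnl* (11.0), *Nrg4* (6.70), *Bmp7* (1.31), *Bmp4* (1.07), *Gdf15* (0.308), *Slit2* (0.211), *Fgf9* (0.158), *Fgf21* (0.0317), and *Bmp8b* (0.00736). The ranges over the 3 *Ebf2+/+* mice overlapped between *Bmp7* and *Bmp4*, between *Gdf15* and *Slit2*, and between *Fgf21* and *Bmp8b*, and these neighbours did not differ beyond their spread. Sources differ on whether the libraries covered whole transcripts or only 3′ ends, and in the latter case the values per kb understate long genes such as *Slit2*.

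Of the 8 members that had 10 or more counts in each library, 2 were lower and 1 was higher without overlap. Among all 18905 genes with such counts, 6.78% were lower and 6.66% were higher without overlap. At an unadjusted *P* under 0.05 in edgeR, which 4.77% of all genes tested reached, 2 of the 10 members were lower (3.09% of all genes) and 0 were higher (1.68%). DESeq2 also called none of the members, against 0.61% of the genes for which it gives an adjusted *P*. It gave none for *Fgf21* and *Bmp8b*, which could thus not be called. *Nrg4* (0.0191), *Vegfa* (0.0225), and *Fgf9* (0.0414) were under an unadjusted *P* of 0.05 in DESeq2. The median log2 fold change of the 8 genes was 0.09, with 3 below and 5 above 0, beside 0.02 over the 20834 genes with a mean count of at least 10. The members thus lay on both sides of 0. Without *Ebf2 E165X/+* mouse 3, 1 member was lower (*Nrg4*) and 1 was higher (*Slit2*) at an unadjusted *P* under 0.05 in edgeR, beside 3.54% lower and 1.78% higher of the 32108 genes tested in that fit.

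**Figure D2:**
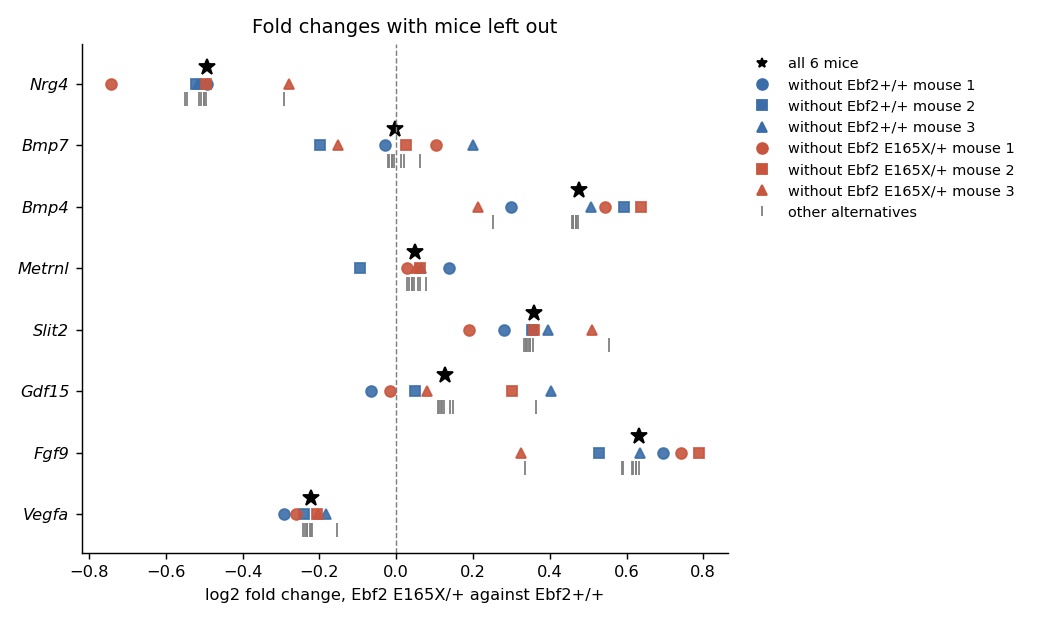
Log2 fold change between genotypes (x axis) of the 8 secreted factors, with all 6 mice (star), with each mouse left out (coloured symbols), and under the other alternatives (grey ticks, including the removal of mouse 3 of both genotypes). *Nrg4* and *Vegfa* stay below 0 and *Fgf9*, *Bmp4*, and *Slit2* above 0 throughout, *Fgf9* and *Bmp4* are smallest without *Ebf2 E165X/+* mouse 3, and *Bmp7*, *Metrnl*, and *Gdf15* cross 0.

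The receptors of these factors were compared next. Of 23 receptors and coreceptors, 22 were tested, and *Gfral*, the GDF15 receptor of the hindbrain, had no counts. *Nrp2*, a coreceptor for VEGF and semaphorins, was measured at 102, 87.0, and 98.9 CPM in wild-type mice and at 86.3, 83.3, and 80.1 CPM in E165X/+ mice, just below the lowest control. Its log2 fold change was −0.21 (SE 0.0833), and with all 6 mice it was the only receptor at an unadjusted *P* under 0.05 (0.0406, edgeR adjusted *P* = 0.783). This did not hold when mice were left out in turn, where *Nrp2* passed only without wild-type mouse 2. With all 6 mice, 4.77% of all genes tested in edgeR were at that level, 3.09% lower and 1.68% higher. The share of 1 in 22 receptors was close to this background. Without E165X/+ mouse 3, *Nrp2* had −0.18 (unadjusted *P* = 0.0846), 0 receptors were lower, and 1 was higher, *Fgfr2*, an FGF receptor (0.35, unadjusted *P* = 0.0301). In that fit 3.54% of all genes tested were lower and 1.78% were higher. Without wild-type mouse 1 or E165X/+ mouse 2, 0 receptors passed in either direction. Without wild-type mouse 3, 1 receptor was lower, and without E165X/+ mouse 1, 1 was lower and 1 was higher. With a block for replicate number, 2 receptors were lower. DESeq2 gave 2 lower at an unadjusted *P* under 0.05, *Nrp2* (0.0314) and *Klb* (0.0277). *Klb*, which encodes β-Klotho, was measured at 83.6, 63.6, and 60.7 CPM against 61.5, 54.1, and 35.9 CPM. The *Klb* ranges overlapped in 1 mouse, and the log2 fold change was −0.46 (SE 0.207, unadjusted *P* = 0.0605 in edgeR), or −0.26 without E165X/+ mouse 3. *Robo2*, a SLIT receptor, was measured at 4.35, 4.77, and 5.14 CPM against 5.64, 6.19, and 5.18 CPM, higher without overlap but by a margin of hundredths of a CPM for mouse 3, with a log2 fold change of 0.25 (unadjusted *P* = 0.116 in edgeR).

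For the receptors of *Vegfa*, the log2 fold change was −0.26 for *Kdr*, which encodes VEGFR2, −0.05 for *Flt1*, which encodes VEGFR1, and −0.11 for the coreceptor *Nrp1*. Without E165X/+ mouse 3 these were −0.13, 0.03, and 0.0092, so that the last 2 turned. For the ErbB receptors of *Nrg4* it was −0.35 for *Erbb4* and 0.06 for *Erbb3*, and without that mouse −0.52 and −0.03. *Kdr* had an unadjusted *P* of 0.105 in edgeR and *Erbb4* of 0.232. Among the FGF receptors it was 0.00045 for *Fgfr1*, 0.13 for *Fgfr2*, and 0.03 for *Fgfr3*, and without that mouse 0.07, 0.35, and 0.13. The BMP receptors *Bmpr1a*, *Bmpr2*, *Acvr1*, *Acvr2a*, *Acvr2b*, and *Acvrl1* had log2 fold changes from −0.09 for *Acvr2b* to 0.09 for *Acvr2a*, and *Bmpr1b*, the scarce type I receptor, had 0.55 (SE 0.511). *Bmpr1b* was measured at 0.824, 0.863, and 0.710 CPM against 0.432, 0.953, and 2.12 CPM, where mouse 3 was far above all others, and its log2 fold change without that mouse was −0.20 (unadjusted *P* = 0.589). Without it, *Acvr2b* went to −0.35 and *Bmpr1a* to −0.06. The remaining receptors were *Robo1* with 0.04, *Robo4*, the endothelial member, with −0.09, *Ret*, the signalling partner of GFRAL, with 0.35, and *Kit*, listed as a receptor for meteorin-like, with −0.07. Without E165X/+ mouse 3, *Ret* had 0.17, *Robo1* 0.14, and *Robo4* 0.04, and 7 of the 22 receptors in all had the opposite sign. The median over the 22 receptors with all mice was 0.02, the same to 2 decimals as that of all genes.

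**Figure D3:**
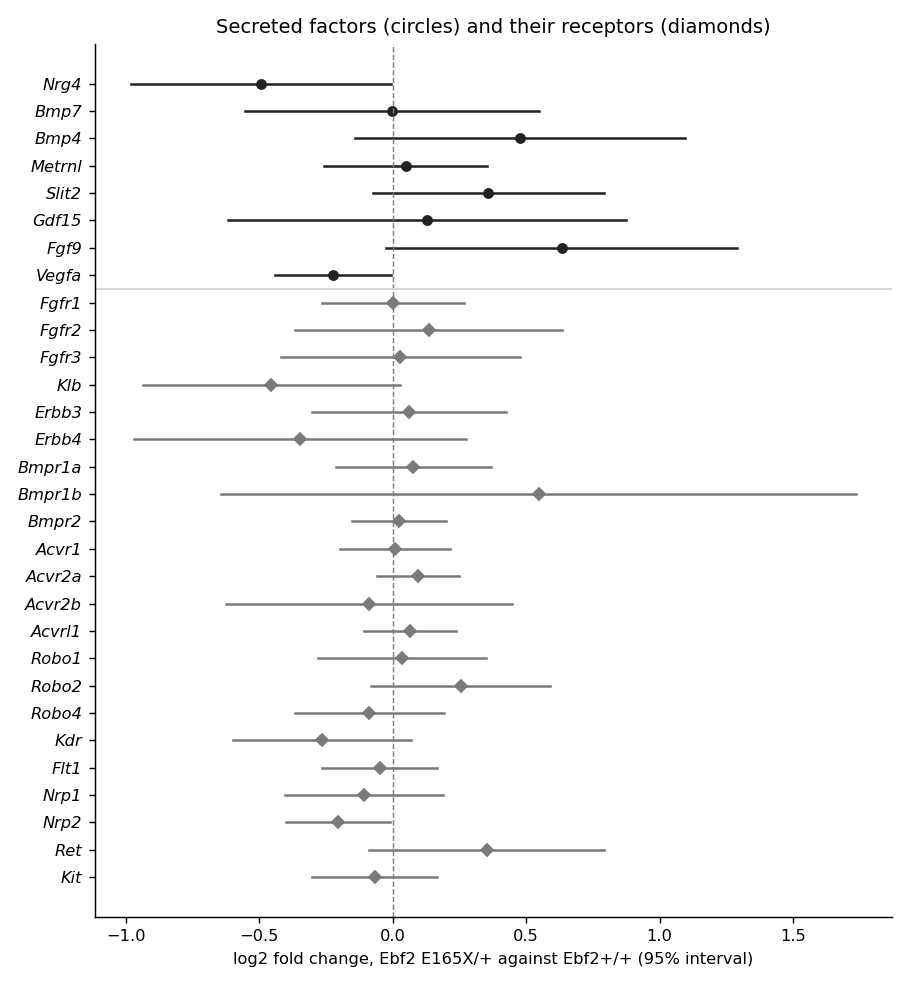
Log2 fold change, *Ebf2 E165X/+* against *Ebf2+/+*, with its 95% interval (x axis) for the 8 secreted factors with at least 10 counts in every library (circles) and the 22 receptors tested (diamonds). The intervals of *Nrg4*, *Vegfa*, and *Nrp2* end just below 0, and every other interval includes 0.

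Genes around the members in their pathways were described by lists, in which an unadjusted *P* under 0.05 in edgeR is the criterion and none was called after adjustment in edgeR with all 6 mice. Of 15 BMP antagonists, 1 was higher and 0 were lower. It was *Grem1*, which encodes gremlin 1, an extracellular BMP inhibitor, with 7.73, 10.6, and 9.61 CPM against 12.7, 11.4, and 11.0 CPM and a log2 fold change of 0.33 (unadjusted *P* = 0.0495). It stayed under 0.05 in only 4 of the 14 alternatives, although its direction held in all 14. *Fstl1*, the most abundant of the antagonists, had a log2 fold change of 0.13, or 0.08 without E165X/+ mouse 3. The median over the 14 antagonists with a mean count of at least 10 was 0.17, with 11 above and 3 below 0, and it was 0.06 without that mouse. Of 11 genes of the BMP response, including the ID genes that SMAD1 and SMAD5 activate, 0 passed in either direction, and *Smad5* itself had a log2 fold change of 0.0064. *Id4*, named after its values were seen, had −0.40 (unadjusted *P* = 0.052) and was lower at an unadjusted *P* of 0.0214 in DESeq2 and of 0.0214 in edgeR without E165X/+ mouse 3.

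Of the 12 other BMP and GDF ligands, 1 was higher and 2 were lower. *Bmp3*, an atypical BMP that opposes others, was measured at 14.5, 22.5, and 18.0 CPM against 23.5, 37.5, and 23.3 CPM, higher without overlap (log2 fold change 0.61, unadjusted *P* = 0.0282). *Bmp6*, a BMP also known as a regulator of iron, was measured at 17.7, 17.2, and 18.5 CPM against 13.9, 14.0, and 15.1 CPM, lower without overlap (−0.31, unadjusted *P* = 0.0079). *Gdf5*, a joint and cartilage factor, was measured at 2.06, 1.31, and 0.992 CPM against 0.640, 0.801, and 0.484 CPM (−1.18, edgeR adjusted *P* = 0.783). *Gdf5* was the gene of this family that DESeq2 called, with an adjusted *P* of 0.0465. *Gdf10*, the most abundant, had a log2 fold change of −0.12. So *Bmp6* and *Gdf5* were lower and *Bmp3* higher at this level, while the 3 BMP members of the secreted factors were not separated.

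Of 19 other FGF ligands tested among 20 listed (*Fgf20* had no counts), 1 was higher and 0 were lower. *Fgf13*, an intracellular FGF that is not secreted, was measured at 12.9, 11.8, and 11.2 CPM against 14.7, 13.0, and 18.6 CPM (log2 fold change 0.37, unadjusted *P* = 0.0375), and without E165X/+ mouse 3 it no longer passed (0.21, unadjusted *P* = 0.115). *Fgf10*, the most abundant and a factor for adipocyte progenitors, was measured at 90.1, 67.9, and 64.2 CPM against 104, 99.5, and 60.5 CPM and overlapped. Its log2 fold change was 0.25, and without that mouse 0.46 (unadjusted *P* = 0.0124). Of 9 FGF response genes, 1 was higher and 1 was lower. *Spry4*, a feedback inhibitor of receptor tyrosine kinases, had a log2 fold change of 0.29 (unadjusted *P* = 0.0496), and *Egr1*, an immediate early gene, had −0.64 (unadjusted *P* = 0.0301), and the genotypes overlapped for both. DESeq2 had 1 lower, *Egr1*, and 0 higher. *Spred1*, the most abundant, had 0.07.

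Of the 10 other VEGF, neuregulin, SLIT, and meteorin ligands, 0 were higher and 1 was lower. *Vegfb*, which encodes a VEGFR1 ligand, was measured at 47.8, 50.7, and 42.6 CPM against 37.4, 37.8, and 40.5 CPM. It was thus lower in *Ebf2 E165X/+* without overlap, as *Vegfa* was, with a log2 fold change of −0.29 (SE 0.083, unadjusted *P* = 0.00976 in edgeR). *Slit3*, the most abundant of this list, had −0.02, or 0.07 without E165X/+ mouse 3. Of 14 other reported secreted factors of thermogenic fat, 0 were higher and 1 was lower, with a median of −0.14. *Pm20d1*, which encodes an enzyme that makes N-acyl amino acids, was measured at 4.83, 4.09, and 4.07 CPM against 3.40, 2.87, and 2.37 CPM and was lower without overlap (−0.59, unadjusted *P* = 0.0143). *Igf1*, the most abundant, had 0.05, or 0.18 without E165X/+ mouse 3.

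Several members are known targets of stress, hypoxia, and PPAR signalling, so the genes of these responses were set beside them. Of 11 stress response genes, 1 was lower, *Asns*, which encodes asparagine synthetase (log2 fold change −0.52, unadjusted *P* = 0.0208), and 0 were higher, with *Atf4*, the most abundant and a master factor of the response, at 0.24 (unadjusted *P* = 0.0759), or 0.12 without E165X/+ mouse 3. Of 9 hypoxia response genes, 1 was lower, *Pdk1*, which limits pyruvate oxidation (−0.28, unadjusted *P* = 0.0487), and 0 were higher. *Ldha*, the most abundant, was measured at 990, 831, and 708 CPM against 703, 718, and 1364 CPM, and its log2 fold change of 0.14 turned to −0.25 without E165X/+ mouse 3 (unadjusted *P* = 0.186). Without that mouse 2 hypoxia genes were lower, *Pdk1* and *Pgk1*, a glycolytic gene named after its values were seen. Of 8 PPAR targets, 3 were lower, namely *Pdk4* (−1.17), *Ehhadh* (−0.69), and *Acadm* (−0.63), the last 2 being enzymes of peroxisomal and mitochondrial fatty acid oxidation. *Acadm* was measured at 412, 463, and 371 CPM against 269, 270, and 264 CPM, with an edgeR adjusted *P* of 0.377 and a DESeq2 adjusted *P* of 4.87e-06, so that DESeq2 called it. Without E165X/+ mouse 3, edgeR had 4 of the 8 lower and called 1, *Cpt1b*, which encodes the muscle form of carnitine palmitoyltransferase 1 and was named after its values were seen. *Cpt1b* was measured at 29.2, 46.9, and 42.5 CPM against 8.16, 4.92, and 71.6 CPM, with a log2 fold change of −0.48 with all mice and −2.60 (adjusted *P* = 0.0469) without mouse 3. The median over the 8 PPAR targets was −0.38 with all mice and −0.56 without mouse 3. Over all pathway genes, each counted once, 4 of 137 were higher and 11 were lower at an unadjusted *P* under 0.05, and their median log2 fold change was 0.05 (−0.03 without E165X/+ mouse 3). These are 2.92% higher and 8.03% lower, beside 1.68% and 3.09% of all genes tested.

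Against these lists, the markers of the thermogenic adipocyte itself were lower. Their summed level was 252, 283, and 290 CPM in wild-type mice and 83.0, 92.9, and 133 CPM in E165X/+ mice, with *Cidea*, a lipid droplet protein of brown fat, as the most abundant and none at 0 in any library (two-sided exact permutation *P* = 0.1, the smallest that 3 against 3 mice can give). Of the 11 markers, 7 were lower at an unadjusted *P* under 0.05 and 0 were higher, with a median log2 fold change of −0.90, 10 below and 1 above 0. The last was *Zic1*, a brown fat transcription factor, with 2.34 (unadjusted *P* = 0.101) with all mice and −0.29 without E165X/+ mouse 3. Without *Ebf2 E165X/+* mouse 3, 8 of 11 were lower and the median was −1.26. DESeq2 called 4 of the 11, and edgeR 1, or 0 without wild-type mouse 2. *Cidea* fell from 82.4, 103, and 106 CPM to 7.97, 9.61, and 13.2 CPM (log2 fold change −3.24, edgeR adjusted *P* = 0.00462). *Ucp1*, the uncoupling protein, was measured at 10.8, 21.3, and 33.0 CPM against 0.259, 0.264, and 0.617 CPM (−5.83, edgeR adjusted *P* = 0.0596, or 0.0132 without E165X/+ mouse 3). The differences of *Nrg4* and *Vegfa*, at −0.49 and −0.22, were far smaller than those of *Cidea* and *Ucp1*. Not all markers differed by as much. *Prdm16* had −0.32 and *Ppargc1a* −0.11, or −0.26 and −0.36 without E165X/+ mouse 3. White adipocyte markers summed to 15404, 16839, and 13625 CPM against 14471, 13983, and 9609 CPM and overlapped (exact permutation *P* = 0.3), with *Fabp4* the most abundant, all 7 genes below 0 on the log2 scale, and 0 of 7 at an unadjusted *P* under 0.05 in edgeR. The difference of the white adipocyte sums was −2602 CPM with all mice and −1063 CPM without E165X/+ mouse 3.

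**Figure D4:**
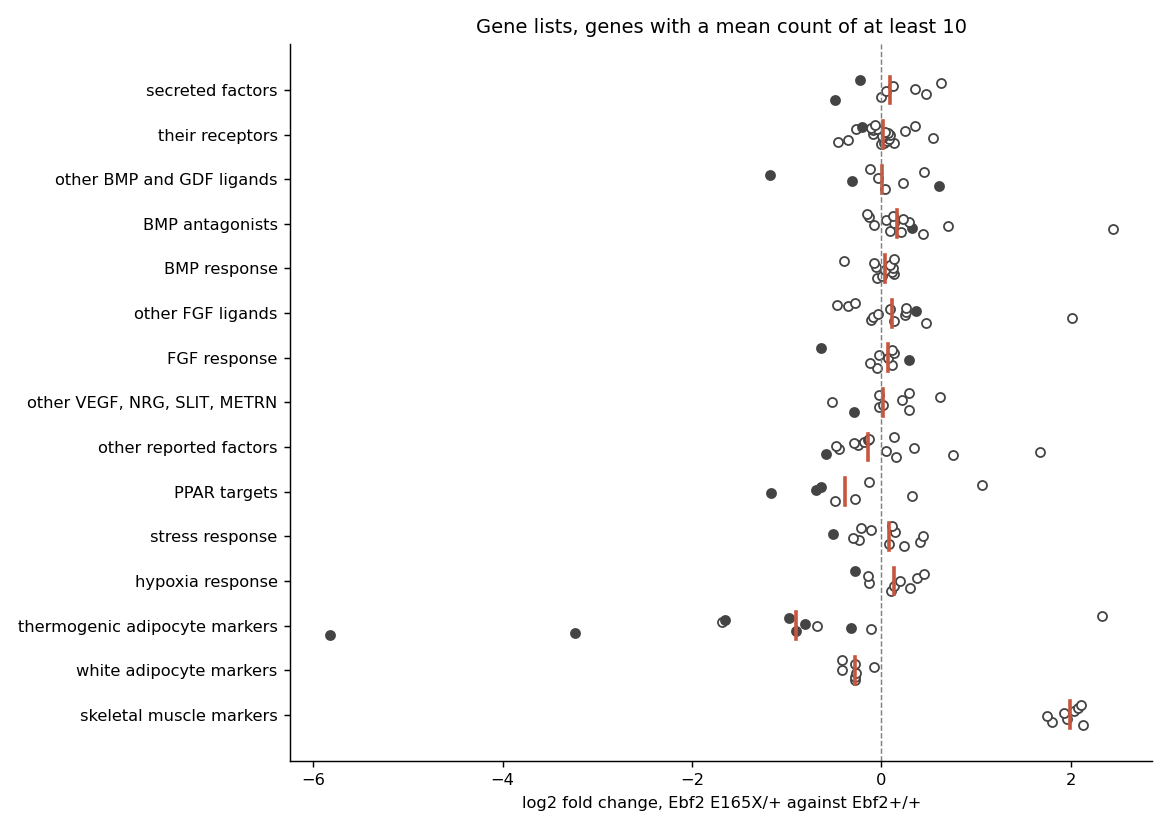
Log2 fold change, *Ebf2 E165X/+* against *Ebf2+/+* (x axis), of the genes in each list with a mean count of at least 10 (1 point per gene, filled where the unadjusted edgeR *P* is under 0.05) with the median of the list as a red bar. The secreted factors and their receptors lie around 0, with medians of 0.09 and 0.02, the PPAR targets at −0.38, the thermogenic adipocyte markers at −0.90, and the skeletal muscle markers near 2 with *Ebf2 E165X/+* mouse 3 included.

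Markers of other cell types moved with the genotypes or with single mice. The 4 mast cell markers, most abundant *Mcpt4*, summed to 68.2, 57.7, and 76.6 CPM in wild-type mice and to 96.7, 86.6, and 100.4 CPM in E165X/+ mice, and the 5 lymphocyte markers, most abundant *Ms4a1*, to 240, 371, and 383 CPM against 388, 449, and 406 CPM. Both were higher without overlap (exact permutation *P* = 0.1 each, the smallest possible), with none of these genes at 0, and 3 of 4 mast cell markers and 0 of 5 lymphocyte markers passed an unadjusted *P* of 0.05 in edgeR. DESeq2 called 1 of the mast cell markers, *Mcpt4* (adjusted *P* = 9.46e-06), and 0 of the lymphocyte markers. The lymphocyte difference of 83.1 CPM was 37.3 CPM without wild-type mouse 1. The 5 endothelial markers, which concern *Vegfa*, *Kdr*, and *Nrp2*, summed to 875, 867, and 817 CPM against 809, 843, and 680 CPM, most abundant *Pecam1*, and overlapped (exact permutation *P* = 0.2). Their difference of −75.9 CPM was −27.3 CPM without E165X/+ mouse 3. The sums for progenitor, mural, macrophage, epithelial, and Schwann cell markers also overlapped (exact permutation *P* of 0.3, 0.7, 0.5, 0.3, and 0.4). Leaving out single mice moved the differences of these 5 sums by more than 1.5 times. The part of these cells in the differences of *Nrg4*, *Vegfa*, and *Fgf9* was not tested.

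The genes whose pattern over the 6 libraries was most like that of *Fgf9*, taken as the member with the largest change over all 6 mice, were *Lcn2*, *Dmbt1*, and *A830082N09Rik*, out of 18904 compared. Likeness was the root mean square difference of log2 CPM, each gene centred on its own mean, and was 0.0544, 0.104, and 0.106. *Lcn2*, which encodes lipocalin 2, was measured at 4.36, 3.46, and 4.32 CPM in wild-type mice and at 5.08, 4.76, and 7.84 CPM in E165X/+ mice. As for *Fgf9*, its 3 *Ebf2 E165X/+* values were above the controls and that of mouse 3 was the highest. The likeness is a description over 6 libraries only.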

How the data were processed

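RNA-seq of IWAT from 3 *Ebf2+/+* and 3 *Ebf2 E165X/+* mice was examined, with groups taken from the sample labels. The authors deposited expected counts per gene, with no scaling between libraries. Since all 332946 values are integers, rounding changed nothing. The submitters' processing notes name cutadapt 4.8, FastQC 0.11.8, STAR 2.7.8a, RSEM 1.3.3, MultiQC 1.20, and GRCm38. The study's methods describe 3′ libraries, while the labels name a kit of another maker.

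Counts were tested in R 4.3.3 with the quasi-likelihood test of edgeR 4.0.16, with TMM factors, genotype as the only term, and a minimum of 1 count in any of the libraries. Benjamini-Hochberg adjustment ran over the 32664 genes tested. Standard errors were taken as the size of the log2 fold change divided by the square root of F. Alternatives were DESeq2 1.42.0, limma-voom (limma 3.58.1), DESeq2 size factors, filterByExpr, at least 10 counts in every library, mitochondrially encoded genes left out, a block for replicate number, and mice left out. The code of the edgeR, DESeq2, and voom fits was run on simulated data with larger changes than those of the members and less spread between libraries. That run does not test how well effects of the members' size are found.

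For marker sums, the group means were compared by an exact permutation test (two-sided). Members and lists were chosen with earlier results of these data known. The genes named were the 10 members, all receptors tested, from each other pathway list the genes at an unadjusted *P* under 0.05 and the one with the highest mean CPM, and the 3 nearest profiles to the member with the largest change. One gene that this rule names is not reported here. Coordinates are those of GENCODE M21 on GRCm38. Totals were 106820505 to 135039488 counts per library. Intervals are for the log2 fold change between genotypes and were built from its standard error in the edgeR fit. The spread between the 3 mice of each genotype enters through that error, and the intervals are not ranges for single mice.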

Additional observations from a re-analysis of the deposited data

How the results depend on the processing

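The secreted factors had no call under any alternative run, and 2 of 10 were at an unadjusted *P* under 0.05 in edgeR with all mice. This count was 1 with filterByExpr, 1 with at least 10 counts in every library, and 1 without mouse 3 of both genotypes. It ran from 0 to 2 when each mouse was left out, and was 3 with DESeq2 and 2 with limma-voom. Over all genes, 3 were called in edgeR, 98 in DESeq2, 9 without mouse 3 of both genotypes, and 1 to 11 when each mouse was left out, where the highest count came without *Ebf2 E165X/+* mouse 3. Of 112 log2 fold changes, from 8 members with at least 10 counts in every library under 14 alternatives, 103 kept their direction and 9 turned. The latter were those of *Bmp7* (0.013 with limma-voom, 0.020 with the replicate block, 0.06 without mouse 3 of both genotypes, and −0.20 to 0.20 when each mouse was left out), of *Metrnl* (−0.095 to 0.14 when each mouse was left out), and of *Gdf15* (−0.067 to 0.40). When each mouse was left out, the difference in summed CPM (*Ebf2 E165X/+* minus *Ebf2+/+*) ran from −2183 to 19836 for the skeletal muscle markers and from −65.8 to 28.8 for the mural cell markers, and the former was negative only without *Ebf2 E165X/+* mouse 3. With each mouse left out, the receptors had 0 to 1 lower and 0 to 1 higher at an unadjusted *P* under 0.05, the hypoxia genes 0 to 2 and 0 to 1, the PPAR targets 2 to 4 and 0, and the thermogenic markers 6 to 8 and 0 to 1. Of the pathway genes at an unadjusted *P* under 0.05, *Acadm*, *Ehhadh*, *Bmp6*, *Gdf5*, *Vegfb*, and *Pm20d1* stayed there under all 14 alternatives, *Asns* under 13, *Bmp3* under 11, *Egr1* under 8, *Nrp2* and *Pdk1* under 7, *Fgf13* and *Pdk4* under 6, *Grem1* under 4, and *Spry4* under 2, while *Nrg4* and *Vegfa* stayed there under 7 each. The cause of these changes was not tested.

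Mice with the same replicate number showed no common deviation from their group means (correlations across 18905 genes of 0.153, −0.278, and −0.162). With so few mice, and 1 library rich in muscle transcripts, these values cannot exclude that the numbers pair mice. With the number as a replicate block, 2 genes were called and 1 member, *Nrg4*, was at an unadjusted *P* under 0.05. With 3 mice per genotype, the 95% interval of *Gdf15* includes a 1.5-fold change in either direction, and *Fgf21* and *Bmp8b* are too scarce at this depth for a fold change.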
